A study of Mus musculus with 4 samples.

Results

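Among mouse bone marrow cells sorted as short-term hematopoietic stem cells (ST-HSC), a few carried transcripts of genes that mark long-term stem cells (LT-HSC), and these LT-like cells are described here. A cell was called LT-like when it held a transcript of at least 2 of the 7 genes Slamf1, Sult1a1, Clec1a, Vwf, Nupr1, Cavin2 and Cracr2b. There were 75 such cells, 53 of the 2633 kept ST-HSC cells of mouse 1 and 22 of the 1707 of mouse 2, out of 5579 kept cells in the whole series. They were set against 225 kept ST-HSC cells of the same libraries, 159 and 66, that held none of the 7 genes and were matched to them on depth, and against the cells of the LT-HSC gate.

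Hematopoietic stem cells keep the blood system going by dividing rarely and by giving rise to every blood lineage. LT-HSC sustain a transplanted recipient for life, while ST-HSC do so for a limited time and stand closer to the multipotent progenitors (MPP), which feed the myeloid and lymphoid branches. The 2 compartments are separated at the cell surface with the SLAM receptors: CD150, the product of Slamf1, marks LT-HSC, and CD48 marks progenitors further down. Loss of stem cell genes and gain of Flt3, the receptor of a cytokine that drives early progenitors, accompany the step from stem cell to progenitor.

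All cells came from 2 male mice aged 14 weeks of the strain Tie2-bG-Micm x RosaYFP, which carry an inducible Cre driven by Tie2, a promoter active in endothelial and blood stem cells, and a YFP reporter at the Rosa locus. No treatment is named in the labels. Both gates took lineage-negative, Kit-positive, Sca1-positive, CD48-negative cells, and the ST-HSC gate took those without CD150 and the LT-HSC gate those with it. Each mouse gave 1 library per gate, and transcripts were counted as unique molecular identifiers (UMI) from the 3' end. The LT-HSC library of mouse 1 stood apart, since 22 of its 39553 barcodes passed as cells with a median of 4494.5 UMIs, against 1217 of 1288 barcodes and a median of 10367 UMIs in LT-HSC of mouse 2. Kept ST-HSC cells had a median of 9881 UMIs in mouse 1 and 7504 in mouse 2. Among kept cells, 1 barcode was shared by both ST-HSC libraries and 1 by the LT-HSC and ST-HSC libraries of mouse 2.

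LT-like cells were 2.01% of kept ST-HSC cells in mouse 1 (exact 95% interval 1.51 to 2.62) and 1.29% in mouse 2 (0.809 to 1.94). By the same count, 8 of 22 cells of the LT-HSC gate of mouse 1 (36.4%, 17.2 to 59.3) and 547 of 1217 of mouse 2 (44.9%, 42.1 to 47.8) held 2 or more of the genes. Intervals and floors cover counting error only. Most LT-like cells sat at the threshold: 49 and 20 of them held exactly 2 of the genes, 4 and 2 held 3, and none held more. Just outside it stood 391 ST-HSC cells of mouse 1 (14.8%) and 240 of mouse 2 (14.1%) with 1 gene, while 2189 (83.1%) and 1445 (84.7%) held none. In LT-HSC of mouse 2 the spread was wider, with 293 cells at 3 or more and 8 cells with all 7.

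**Figure D1:**
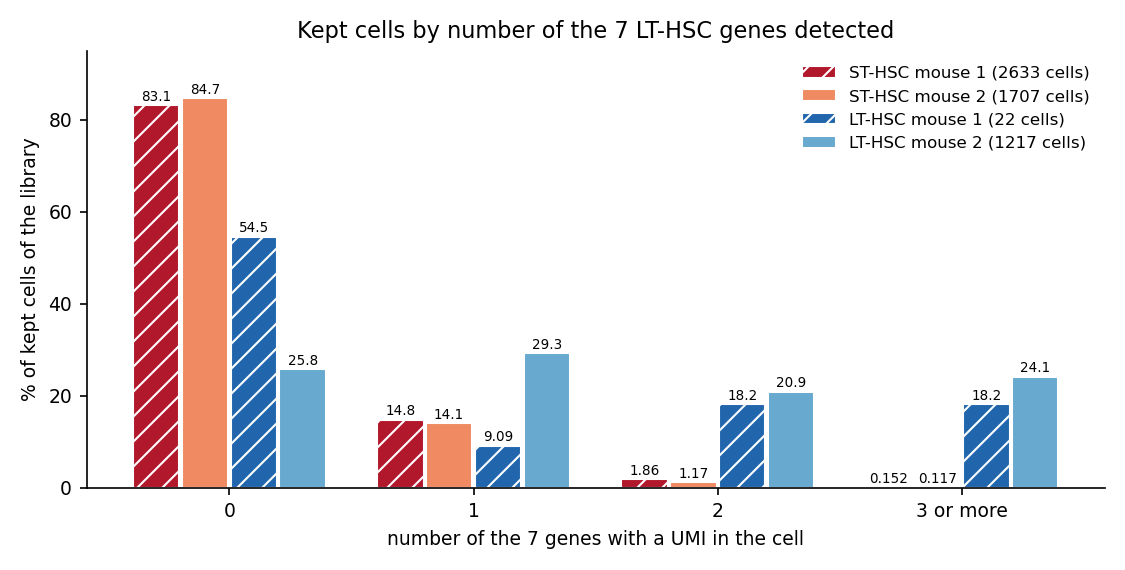
Share of the kept cells of each library (y axis, % of cells) by the number of the 7 genes with a UMI in the cell (x axis), for the 2 ST-HSC libraries and the 2 LT-HSC libraries. In both ST-HSC libraries over 83% of cells hold none of the genes and at most 2.01% hold 2 or more, while 44.9% of LT-HSC cells of mouse 2 hold 2 or more.

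The genes that admitted the LT-like cells were used by the rule and are given as a description. Clec1a, a C-type lectin, had a UMI in 29 of 53 LT-like cells of mouse 1 (54.7%) and 11 of 22 of mouse 2 (50.0%). Cracr2b, a regulator of calcium channels, was found in 26 (49.1%) and 10 (45.5%), and Sult1a1, a sulfotransferase, in 21 (39.6%) and 10 (45.5%). These 3 genes carried most of the memberships. Vwf, the clotting and adhesion protein of endothelium and platelets, was seen in 13 (24.5%) and 8 (36.4%) cells, and Nupr1, a nuclear stress protein, in 14 (26.4%) and 4 (18.2%). Slamf1 itself was seen in 6 (11.3%) and 3 (13.6%), and Cavin2, a coat protein of caveolae, in 1 and 0. The most frequent pairs were Clec1a with Cracr2b in 17 cells, Sult1a1 with Clec1a in 12 and Vwf with Cracr2b in 10. Among ST-HSC cells of at least 10000 UMIs, these genes were counted with and without another of the 7. In mouse 1, Clec1a, Cracr2b, Sult1a1 and Vwf were in 6.32, 8.57, 5.97 and 4.95% with another, against 3.63, 4.96, 2.63 and 2.54% without. In mouse 2 they were in 5.56, 0, 5.13 and 0%, against 3.41, 6.16, 1.98 and 2.46%. Slamf1, Nupr1 and Cavin2 were in 2.74, 4.71 and 0.441% with another in mouse 1, against 0.957, 3.54 and 0.193% without. Their shares in mouse 2 were 2.56, 5.56 and 0% (1, 2 and 0 cells), against 1.98, 3.41 and 0%. Whether pairs were more frequent than the single genes would give was not tested. In the LT-HSC gate Slamf1 was detected in 3 of 22 cells of mouse 1 (13.6%) and 221 of 1217 of mouse 2 (18.2%), and Cavin2 in 4 (18.2%) and 210 (17.3%).

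On mm10, with the GENCODE vM21 annotation, Slamf1 lies at chr1:171767127-171801184 on the plus strand and Cavin2 at chr1:51289126-51302960 on the plus strand. Clec1a lies at chr6:129424772-129452000 on the minus strand and Vwf at chr6:125546774-125686679 on the plus strand. The remaining genes share chromosome 7, Sult1a1 at chr7:126672865-126676432 and Nupr1 at chr7:126623249-126630861, both on the minus strand, and Cracr2b at chr7:141461094-141466613 on the plus strand.

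Free RNA in droplets can place a UMI in a cell that does not express the gene. Maturing neutrophils should lack the 7 genes, so the share was read against ST-HSC library cells that carried 3 or more neutrophil markers. Of those, 1 of 28 cells in mouse 1 (3.57%, 0.0904 to 18.3) and 0 of 40 in mouse 2 met the rule, which in mouse 2 allows a share of up to 7.5% (3 counts of the total). At least 1 of the genes was present in 6 of 28 (21.4%, 8.30 to 41.0) and 11 of 40 (27.5%, 14.6 to 43.9) of them. In the other kept ST-HSC cells, 2 or more genes were present in 52 of 2605 cells (2.00%) and 22 of 1667 (1.32%), and 1 or more in 438 (16.8%) and 251 (15.1%). Median depths were 9807 and 8096.5 UMIs in the neutrophil-marked cells and 9881 and 7498 in the others. Lyz2, 1 of the 12 markers, also had 497 and 152 UMIs in the matched cells, so cells with 3 markers need not be neutrophils. With 6 or more markers, 2 of 5 and 0 of 8 cells held at least 1 of the 7 genes, and 0 held 2 or more. With 28 and 40 cells this background was too imprecise to tell whether the share of LT-like cells lay above it, so the share is not read as the frequency of cells that express the genes.

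The share of LT-like cells was also read by depth, and the part of depth in it was not tested. In mouse 1 the share that met the rule was 4.35% of 69 cells with 2000 to 5000 UMIs, 1.46% of 1300 cells up to 10000, 2.29% of 1005 cells up to 15000 and 3.09% of 259 deeper cells. In mouse 2 the shares in the same bands were 0 of 117, 1.41% of 1349, 1.52% of 198 and 0 of 43. LT-like cells had a median of 11040 UMIs in mouse 1 and 7506 in mouse 2. All kept ST-HSC cells with none of the 7 genes had 9808 and 7446. Matched cells, which were chosen by depth, had 11038 and 7504. Genes per cell had medians of 3416 and 2753.5 in LT-like cells and 3445 and 2716 in matched cells, and the mitochondrial share was 3.31% in both mice in LT-like cells, against 3.38% and 3.18% in matched cells. By these 3 measures the matched cells were close to the LT-like ones.

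Markers of other cell types were counted in every LT-like cell. Cells with 3 or more markers of another type were 2 of 53 and 2 of 22 LT-like cells (2 with megakaryocyte markers, 1 with neutrophil and 1 with macrophage markers), against 4 of 159 and 0 of 66 matched cells. Summed megakaryocyte-defining markers were higher in LT-like cells of both mice, at 179 and 239 counts per 1e6 UMIs (CPM), against 93.5 and 148 CPM in matched cells, and of those 6 markers Tubb1 was at 0 in LT-like cells. Cells of the LT-HSC gate held 156 and 134 CPM of the same list. Neutrophil markers summed to 315 and 319 CPM in LT-like cells and 280 and 302 CPM in matched cells, with 6 of 12 (Ltf, Lcn2, Chil3, Retnlg, Fcnb and Mmp8) at 0 in LT-like cells. Macrophage markers summed to 14.5 and 51.2 CPM in LT-like cells against 17.2 and 15.2 CPM in matched cells, with Adgre1 and Mrc1 at 0 in LT-like cells. B cell, T and NK cell, mast cell and basophil, endothelial-defining and erythroid-defining markers each summed to under 40 CPM in LT-like cells, and the part of any of these lists in the results was not tested.

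The main comparison asked what else distinguished LT-like cells from matched ST-HSC cells once the 7 genes were set aside. Counts were summed per mouse and class, so that each class had 2 values: 621769 and 175750 UMIs for LT-like cells of mice 1 and 2, and 1861050 and 527310 UMIs for matched cells. A sum of 3 counts corresponds to 4.82 and 17.1 CPM in the LT-like sums and to 1.61 and 5.69 CPM in the matched sums, so genes below about 20 CPM were hardly measurable in LT-like cells of mouse 2. Values of single genes below are CPM without the 7 genes. With class as the only factor, edgeR's quasi-likelihood test called 0 of 7023 genes in either direction at an adjusted p of 0.05 (0% higher and 0% lower); 191 had an unadjusted p under 0.05, and DESeq2 called 0 with 25. With the mouse as a block, which compares LT-like with matched cells inside each library, 21 genes were higher (0.299% of genes tested) and 18 lower (0.256%). Of these 39, 35 had the same direction in both mice, 23 also had an unadjusted p under 0.05 without the block, and 8 were ribosomal protein genes.

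These calls rest on few samples. The blocked fit has 1 residual degree of freedom per gene and the unblocked fit 2, with the spread pooled over genes, so the calls below hold only with the mouse as a block; every gene named from this comparison had an adjusted p of 0.999 without it. Without mouse 2's LT-like cells the unblocked test called 2 genes higher and 9 lower, without those of mouse 1 it called 1 higher and 0 lower, and without the matched cells of mouse 1 or of mouse 2 it called 1 and 3 or 2 and 2. p-values rest on a spread pooled over genes from these sums of 2 animals, and do not show that the animals agreed on a gene. Of all 7023 genes tested, 1661 were higher and 1978 lower in both mice. How many genes had classes that did not overlap was counted neither here nor against the LT-HSC gate. Separation of the classes, where given below, is therefore only a description. Gm42418 and Wfdc17 passed with the block although their mice moved in opposite directions. LT-like cells were picked by transcripts counted in the same cells in which the other genes were read.

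Apoe, the gene of the lipid carrier apolipoprotein E, at chr7:19696109-19699188 on the minus strand, stood at 251 CPM in LT-like cells of mouse 1 and 142 CPM in those of mouse 2, against 110 and 89.1 CPM in matched cells. Both LT-like values lay above both matched values. The log2 fold change was 1.12 (SE 0.17, adjusted p = 6.79e-08 in edgeR with the mouse as a block). A UMI of Apoe was present in 39 of 53 (73.6%) and 13 of 22 (59.1%) LT-like cells, against 83 of 159 (52.2%) and 27 of 66 (40.9%) matched cells. Among cells with 6 or more neutrophil markers 1 of 5 and 1 of 8 held one.

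Meg3, a maternally expressed long noncoding RNA of an imprinted cluster that is active in LT-HSC, at chr12:109541001-109571726 on the plus strand, reached 64.3 and 34.2 CPM in LT-like cells and 18.3 and 19 CPM in matched cells. The groups did not overlap, and the log2 fold change with the block was 1.64 (SE 0.35, edgeR adjusted p = 0.00122). This level came from few cells: 8 of 53 and 3 of 22 LT-like cells held Meg3, against 12 of 159 and 5 of 66 matched cells, and 12 of the 40 UMIs in LT-like cells of mouse 1 lay in 1 cell.

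Aplp2, an amyloid precursor-like membrane protein, was even between mice at 113 and 120 CPM in LT-like cells, against 55.3 and 62.6 CPM in matched cells (log2 fold change 1.03, SE 0.22, edgeR adjusted p = 0.00214 with the block). It was detected in 36 of 53 (67.9%) and 15 of 22 (68.2%) LT-like cells, against 73 of 159 (45.9%) and 29 of 66 (43.9%) matched cells. Tmem168, a transmembrane protein gene, had 45.0 and 56.9 CPM in LT-like cells and 19.3 and 17.1 CPM in matched cells (edgeR adjusted p = 0.0356 with the block). H1fx, a linker histone variant, had 83.7 and 102 CPM in LT-like cells and 44.6 and 55 CPM in matched cells (edgeR adjusted p = 0.0326 with the block). For all 3 genes both LT-like values exceeded both matched values.

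Pf4, the platelet chemokine CXCL4, was higher in LT-like cells with the block, at 158 and 199 CPM against 79.0 and 131 CPM in matched cells (log2 fold change 0.90, SE 0.18, edgeR adjusted p = 4.63e-04). It was seen in 31 of 53 and 13 of 22 LT-like cells and in 64 of 159 and 23 of 66 matched cells, and it makes up most of the megakaryocyte-defining sum given above. Txnip, an inhibitor of thioredoxin that is high in resting stem cells, had 635 and 615 CPM in LT-like cells and 453 and 457 CPM in matched cells (log2 fold change 0.50, SE 0.10, edgeR adjusted p = 0.00115 with the block). Its 2 LT-like values lay close together and apart from the matched ones.

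Noncoding RNAs were also among the genes that passed. Neat1, the noncoding RNA of paraspeckles, had 127 and 96.8 CPM in LT-like cells and 64.5 and 85.3 CPM in matched cells (edgeR adjusted p = 0.0244 with the block). Malat1, an abundant nuclear noncoding RNA, had 11952 and 11412 CPM in LT-like cells and 10784 and 10021 CPM in matched cells, a log2 fold change of 0.19 (SE 0.03, edgeR adjusted p = 1.02e-07 with the block). Gm42418 passed with the block although its mice moved in opposite directions, 684 and 256 CPM in LT-like cells against 338 and 558 CPM in matched cells. Tmem40, Spns1 (a lysosomal transporter), Plxna4os1, Maged1, Nr2c2 (an orphan nuclear receptor), Crispld1 and Socs2 were higher in both mice and did not pass with the block. Tmem40 had 67.6 and 79.7 CPM in LT-like cells against 38.2 and 37.9 CPM in matched cells (edgeR adjusted p = 0.0774 with the block), and Crispld1 had 66.0 and 62.6 CPM in LT-like cells against 38.7 and 20.9 CPM in matched cells (edgeR adjusted p = 0.0766 with the block). Spns1 had 32.2 and 39.8 CPM in LT-like cells against 14.0 and 9.48 CPM in matched cells (edgeR adjusted p = 0.186 with the block). Socs2, a suppressor of cytokine signaling, had 33.8 and 34.2 CPM in LT-like cells against 11.8 and 17.1 CPM in matched cells (edgeR adjusted p = 0.199 with the block).

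The genes that were lower in LT-like cells included markers of progenitors and of the lymphoid branch. BC035044 had 3 UMIs in LT-like cells of mouse 1 and 1 in those of mouse 2, or 4.83 and 5.69 CPM, against 36.5 and 30.3 CPM in matched cells (log2 fold change -2.74, SE 0.59, edgeR adjusted p = 0.00145 with the block). It was found in 3 of 53 and 1 of 22 LT-like cells, against 45 of 159 and 13 of 66 matched cells. Slc16a11, of the monocarboxylate transporter family, had 11.3 and 28.5 CPM in LT-like cells and 44.6 and 74.0 CPM in matched cells (log2 fold change -1.72, SE 0.38, edgeR adjusted p = 0.00214 with the block). Vldlr, a lipoprotein receptor, had 24.1 and 28.5 CPM in LT-like cells and 66.1 and 60.7 CPM in matched cells (log2 fold change -1.33, SE 0.32, edgeR adjusted p = 0.0110 with the block). In all 3 the classes were separated in both mice. The LT-HSC gate of mouse 2 held still less of each, at 0.528 CPM of BC035044, 1.51 CPM of Slc16a11 and 14.4 CPM of Vldlr.

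Cd52, a small surface glycoprotein of leukocytes, had 69.2 and 96.8 CPM in LT-like cells and 149 and 142 CPM in matched cells (log2 fold change -0.93, SE 0.21, edgeR adjusted p = 0.00254 with the block). Plac8, a gene that is high in progenitors, had 325 and 216 CPM in LT-like cells and 452 and 427 CPM in matched cells (log2 fold change -0.57, SE 0.13, edgeR adjusted p = 0.00226 with the block). Both were also detected in a smaller share of LT-like cells, Cd52 in 24 of 53 and 7 of 22 against 102 of 159 and 31 of 66 matched cells, and Plac8 in 37 and 14 against 134 and 55. Ighm, the immunoglobulin mu heavy chain, had 4.83 and 28.5 CPM in LT-like cells and 36.5 and 39.8 CPM in matched cells, and all 5 of its UMIs in LT-like cells of mouse 2 lay in 1 cell (edgeR adjusted p = 0.0270 with the block). Itgb5, an integrin subunit, had 1.61 and 17.1 CPM in LT-like cells and 29.0 and 24.7 CPM in matched cells (edgeR adjusted p = 0.0326 with the block).

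Several lower genes rested on single cells or on 1 mouse. Cd69, an early activation marker, had 11.3 and 5.69 CPM in LT-like cells and 71.5 and 20.9 CPM in matched cells (edgeR adjusted p = 1.14e-06 with the block), but 73 of the 133 UMIs in matched cells of mouse 1 lay in 1 cell. Wfdc17 had 40.2 CPM in LT-like cells of mouse 1 and 176 CPM in those of mouse 2, against 179 and 159 CPM in matched cells, so that only mouse 1 was lower (edgeR adjusted p = 2.04e-06 with the block). Of its 31 UMIs in LT-like cells of mouse 2, 20 lay in 1 cell, and of its 334 UMIs in matched cells of mouse 1, 71 did. Hbb-bt, a beta globin whose tags can be shared with its near-identical copies, was lower in mouse 1 at 24.1 CPM in LT-like cells against 104 CPM in matched cells but not in mouse 2 at 142 CPM against 110 CPM, where 17 of its 25 UMIs lay in 1 LT-like cell. Wfdc18 had 4.83 and 22.8 CPM in LT-like cells against 28.5 and 53.1 CPM in matched cells (edgeR adjusted p = 0.0356 with the block), with 3 of 3 and 3 of 4 UMIs in 1 LT-like cell of each mouse.

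Some genes whose classes did not overlap missed the threshold. Gem, a small GTPase, had 12.9 and 11.4 CPM in LT-like cells and 40.8 and 32.2 CPM in matched cells (edgeR adjusted p = 0.0519 with the block). Mtap, a methionine salvage enzyme, had 29.0 and 11.4 CPM in LT-like cells and 58.6 and 55 CPM in matched cells (edgeR adjusted p = 0.0519 with the block). Ywhag, a 14-3-3 adaptor, had 37.0 and 34.2 CPM in LT-like cells and 79.0 and 66.4 CPM in matched cells (edgeR adjusted p = 0.061 with the block). Both LT-like values of each lay below both matched values.

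Abundant genes with small shifts completed the lower set. H2afy, the histone variant macroH2A1, had 959 and 1053 CPM in LT-like cells and 1345 and 1470 CPM in matched cells (log2 fold change -0.46, SE 0.07, edgeR adjusted p = 5.04e-08 with the block). Tmsb10, an actin-sequestering thymosin, had 1071 and 1412 CPM in LT-like cells and 1537 and 1686 CPM in matched cells (log2 fold change -0.41, SE 0.06, edgeR adjusted p = 6.79e-08 with the block). Nop10, a subunit of small nucleolar ribonucleoproteins, had 399 and 307 CPM in LT-like cells and 536 and 540 CPM in matched cells. Stmn1, a microtubule regulator of dividing cells, had 1157 and 803 CPM in LT-like cells and 1469 and 986 CPM in matched cells. The first 3 genes were separated in both mice, and Stmn1 was lower within each mouse while its classes overlapped across mice.

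RNA of Kit, Sca1 and CD48, which were used for sorting, and of Flt3, which was not, gave little contrast inside the gate. Kit had 245 and 307 CPM in LT-like cells and 224 and 237 CPM in matched cells, and Ly6a, the gene of Sca1, had 257 and 330 CPM in LT-like cells and 239 and 271 CPM in matched cells. Flt3 had 78.8 and 171 CPM in LT-like cells and 133 and 163 CPM in matched cells, lower in mouse 1 and not in mouse 2, with a log2 fold change with the block of -0.44 (SE 0.19, edgeR adjusted p = 0.546). A UMI of Flt3 was present in 56.6% and 50.0% of LT-like cells and in 68.6% and 54.5% of matched cells. Cd48 was near the floor, with UMIs in 2 of 53 and 2 of 22 LT-like cells and in 18 of 159 and 8 of 66 matched cells. None of the 4 passed with or without the block.

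Read by gene list, LT-like cells were shifted toward stem cell genes and away from progenitor genes. Of 25 stem cell genes 18 were measurable, and all 18 had a positive log2 fold change (median 0.32), while 3602 of all 7023 genes tested did (median 0.01). In both mice 12 of the 18 were higher, 5 had an unadjusted p under 0.05, and 3 passed with the block: Txnip, Ifitm1 and Pdzk1ip1. Of all 7023 genes, 1661 were higher in both mice, 101 were higher at an edgeR unadjusted p under 0.05, and 21 were higher with the block. The lists were chosen with earlier results of these data known. Ifitm1, an interferon-induced membrane protein, had 1295 and 2112 CPM in LT-like cells and 1027 and 1686 CPM in matched cells (log2 fold change 0.36, SE 0.06, edgeR adjusted p = 2.10e-06 with the block). Pdzk1ip1, a small membrane protein of stem cells, had 140 and 188 CPM in LT-like cells and 81.7 and 140 CPM in matched cells (edgeR adjusted p = 0.0356 with the block). Mllt3, a chromatin reader that maintains stem cells, had 143 and 102 CPM in LT-like cells and 81.7 and 89.1 CPM in matched cells (edgeR adjusted p = 0.061 with the block). Procr, the receptor EPCR, had 117 and 154 CPM in LT-like cells and 88.7 and 92.9 CPM in matched cells (edgeR adjusted p = 0.360 with the block).

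The 14 measurable MPP genes, of 15, all had a negative log2 fold change (median -0.44). Lower in both mice were 10 of them, against 1978 of all 7023 genes tested. Plac8, Cd52 and Wfdc17 passed with the block, against 18 of all genes on the lower side. All 6 measurable genes of the 15 lymphoid ones were negative as well (median -0.58), and Ighm passed. Satb1, a chromatin organizer of lymphoid progenitors, had 27.3 and 5.69 CPM in LT-like cells and 38.2 and 37.9 CPM in matched cells, and Notch1, a receptor of T cell commitment, had 19.3 and 28.5 CPM in LT-like cells and 35.5 and 36.0 CPM in matched cells; neither passed. Counts over measurable genes leave out those too rare in both classes, so they describe a list and not all its genes. Of the 5 measurable early myeloid genes 4 were negative (median -0.20). In both mice 2 were lower and 1 was higher, and 0 passed with the block.

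**Figure D2:**
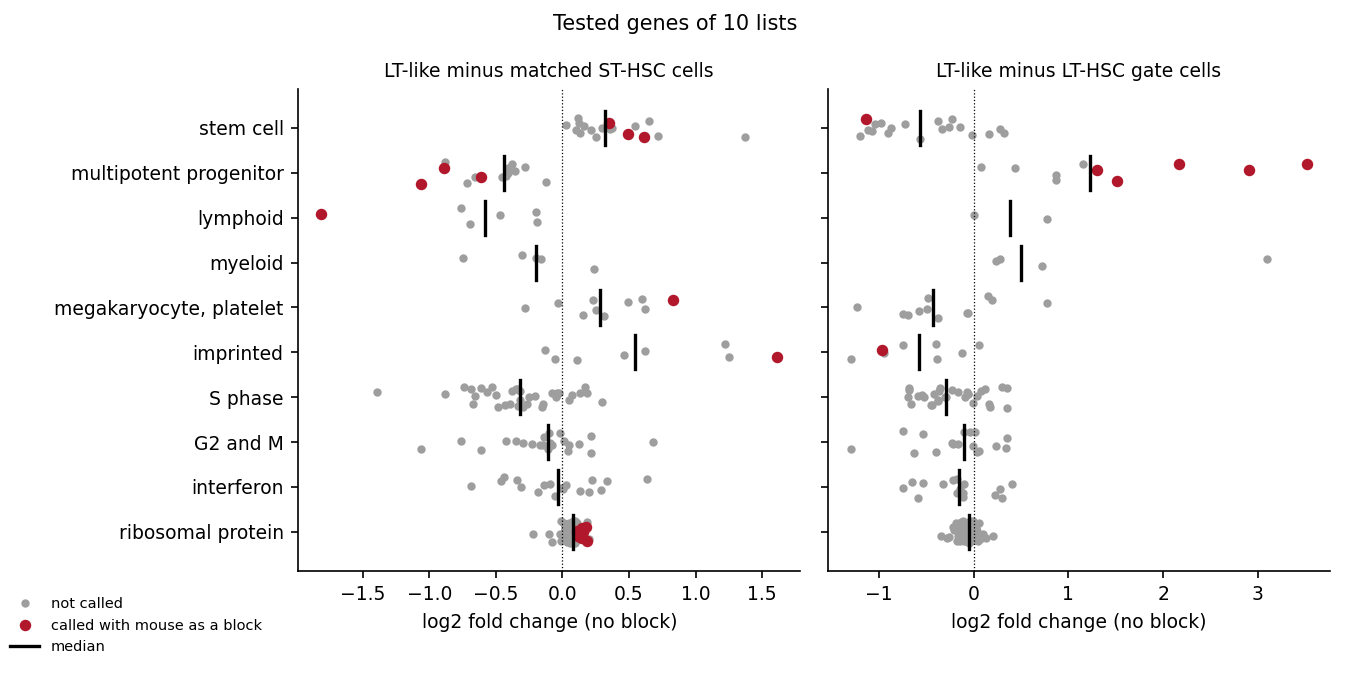
Log2 fold change of each measurable gene in 10 lists (x axis, fit without a block), for LT-like minus matched ST-HSC cells at the left and LT-like minus LT-HSC gate cells at the right. Points are genes, larger red points passed the edgeR test with the mouse as a block, and bars are medians. Against matched cells the stem cell list lies to the right of 0 (median 0.32) and the progenitor list to the left (median -0.44), and against the LT-HSC gate both turn round (medians -0.57 and 1.23).

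Most measurable platelet and imprinted genes were positive. Of 10 measurable megakaryocyte and platelet genes, 8 were positive (median 0.28) and Pf4 passed with the block. Cd9 had 119 and 171 CPM in LT-like cells and 76.3 and 114 CPM in matched cells, and Gng11, a G protein subunit of platelets, had 180 and 182 CPM in LT-like cells and 109 and 163 CPM in matched cells; their edgeR adjusted p-values with the block were 0.104 and 0.0774. Of 8 measurable imprinted genes 6 were positive (median 0.54), and Meg3 passed, while the summed list stood at 1089 and 882 CPM in LT-like cells and 1027 and 906 CPM in matched cells. Cdkn1c, the cell cycle inhibitor p57, had 33.8 and 68.3 CPM in LT-like cells and 22 and 11.4 CPM in matched cells (edgeR adjusted p = 0.205 with the block). Grb10, an adaptor that restrains growth signaling, had 32.2 and 22.8 CPM in LT-like cells and 12.4 and 13.3 CPM in matched cells (edgeR adjusted p = 0.372 with the block). In both of these the classes were separated in each mouse without passing.

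Replication genes leaned the other way. Of 35 measurable S phase genes 29 were negative (median -0.32) and 20 were lower in both mice, against 1978 of all 7023 genes. Of 22 G2 and M phase genes 15 were negative (median -0.11). None of either list passed. Ung, a uracil glycosylase of replicating DNA, had 16.1 and 5.69 CPM in LT-like cells and 45.1 and 19 CPM in matched cells. Cks1b, a cyclin-dependent kinase subunit, had 49.9 and 39.8 CPM in LT-like cells and 94.0 and 60.7 CPM in matched cells. Pclaf, the PCNA clamp-associated factor, was lower with the block (edgeR adjusted p = 1.39e-04) at 22.5 and 5.69 CPM in LT-like cells against 81.7 and 20.9 CPM in matched cells, but 12 of its 14 UMIs in LT-like cells of mouse 1 lay in 1 cell. The S phase shift was in the sums and not in the typical cell. That list summed to 2035 and 1246 CPM over LT-like cells against 2570 and 1612 CPM over matched cells. The median LT-like cell held 1199 and 1128 CPM of it, against 1200 and 1102 CPM in the median matched cell. For the G2 and M list the median LT-like cell was lower, at 1324 and 1050 CPM against 1414 and 1335 CPM.

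Ribosomal protein genes were slightly higher as a body. Of 80 measurable ones 73 were positive with a median of 0.08, 53 were higher in both mice, and 8 passed with the block. Over all 7023 genes, 1661 were higher in both mice and 21 were higher with the block. Rpl21 had 5627 and 6443 CPM in LT-like cells and 4895 and 5945 CPM in matched cells, and Rpl9 had 6182 and 7029 CPM in LT-like cells and 5865 and 6061 CPM in matched cells. These shifts are small beside those of Apoe or Meg3, and reads of ribosomal protein genes can be shared with near-identical copies.

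Levels of the lists were also followed by the number of the 7 genes a cell held, which the rule sets, so they are a description. Per cell of mouse 1, the median summed level of the stem cell list was 3891 CPM in matched cells with none of the genes, 4459 CPM with 1, 4907 CPM with 2 and 5621 CPM with 3 or more (4 cells). In mouse 2 the medians were 4860 CPM with none, 4551 CPM with 1, 5411 CPM with 2 and 3911 CPM with 3 or more (2 cells), so the order did not hold there. LT-HSC gate cells had medians of 5268 and 6050 CPM. The MPP list had medians of 1578 and 1665 CPM over all LT-like cells, against 1873 and 2087 CPM in cells with 1 gene. Matched cells had 2218 and 2389 CPM of it and LT-HSC gate cells 533 and 775 CPM. Its medians were 1560 and 1509 CPM with 2 genes and 2143 and 2087 CPM with 3 or more (4 and 2 cells). The MPP list thus did not keep falling with the number of genes in either mouse. Over all LT-like cells the stem cell list had medians of 5067 and 5351 CPM, between the LT-HSC gate and matched cells in both mice, and the MPP list lay nearer to matched cells than to the gate. Neutrophil markers summed to 2066 and 1172 CPM over the cells with 1 gene, while the median such cell held 299 and 275 CPM of them, against 250 and 287 CPM in the median matched cell, and the part of those markers in the levels was not tested.

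**Figure D3:**
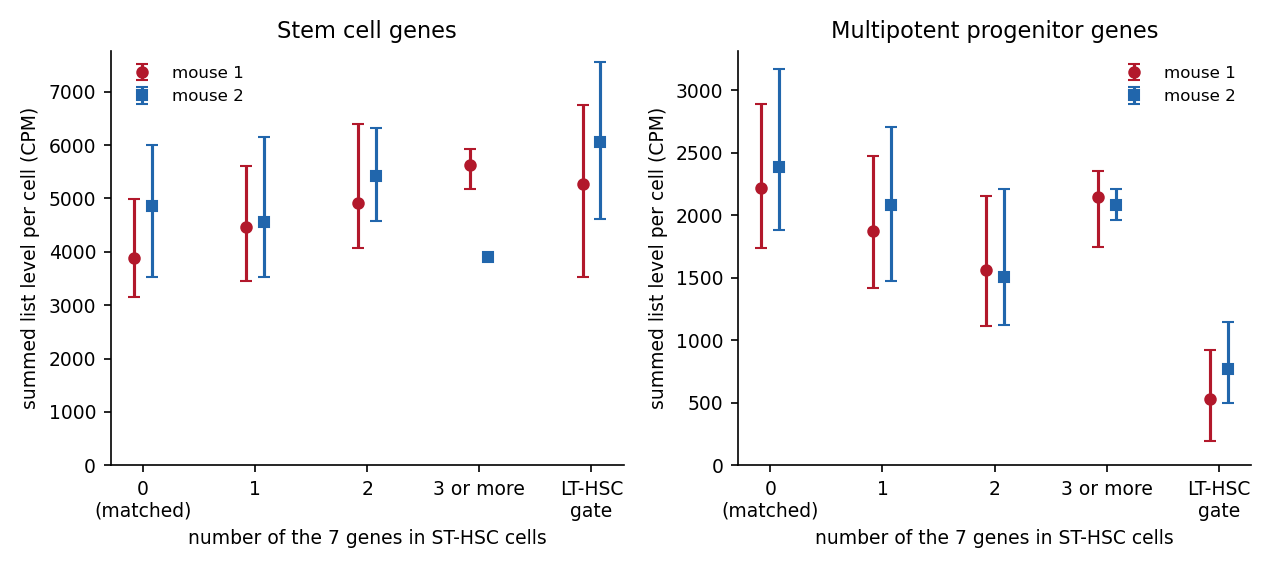
Summed level of the stem cell list (left) and the MPP list (right) per cell (y axis, CPM) by the number of the 7 genes in ST-HSC cells and in the LT-HSC gate (x axis). Points are medians over cells, bars run over the middle 50% of cells, and colors are the mice. The MPP list falls below matched cells at 2 genes in both mice and is lower still in the LT-HSC gate, where medians are 533 and 775 CPM.

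To read the LT-like cells of 1 mouse with genes chosen in the other, gate genes were taken as those at least 2-fold apart between the LT-HSC and ST-HSC libraries of 1 mouse. Of the genes higher in LT-HSC of mouse 2, 31 were measurable in mouse 1, and 27 of them (87.1%, exact 95% interval 70.2 to 96.4) were higher in LT-like cells of mouse 1 than in its matched cells, with a median log2 ratio of 0.60. Of 50 genes lower in LT-HSC of mouse 2, 4 (8.0%, 2.22 to 19.2) were higher in LT-like cells of mouse 1, with a median of -0.46. Among all 6278 genes of that reading 47.0% were higher, with a median of -0.02. A 1.5-fold higher level was reached by 18 of the 31 (58.1%) against 4.79% of all genes, and a 1.5-fold lower level by 19 of the 50 (38.0%) against 5.26% of all genes.

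The reverse reading was weaker. Genes chosen in mouse 1, from all barcodes of its LT-HSC library, gave 22 of 30 higher in LT-like cells of mouse 2 (73.3%, 54.1 to 87.7; median 0.39) and 78 of 189 higher among genes lower in LT-HSC (41.3%, 34.2 to 48.6; median -0.16). Among all 6116 genes 52.3% were higher, and 14% and 15% lay at least 1.5-fold higher or lower, so that sums over 22 cells scattered more. At least 1.5-fold higher were 11 of the 30 (36.7%), and at least 1.5-fold lower were 43 of the 189 (22.8%). The globin genes Hbb-bs, Hba-a1, Hba-a2 and Hbb-bt were among the 30, all higher in LT-like cells, and all but Hbb-bt were among the 11. Hba-a1 and Hba-a2 stood at 79.7 and 39.8 CPM in LT-like cells of mouse 2, against 5.69 CPM each in matched cells. The part of globin RNA in this reading was not tested. With 1 sum per class in each mouse there is no test, and genes do not vary independently of each other.

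Of 11 genes that were higher in the LT-HSC gate and read in both mice, 8 were higher in LT-like cells of both: Apoe, Meg3, Socs2, Pdzk1ip1, Cdkn1c, Uba7, Selenom and Bex1, and none was lower in both. Of 38 genes lower in the LT-HSC gate 23 were lower in LT-like cells of both mice, and none was higher in both. Among the 23 were Slc16a11, Vldlr, Cd52, Plac8, Ighm, Satb1, H2afy and Cd34. Of all 7023 genes tested against matched cells, 1661 were higher and 1978 lower in both mice. Each of the 11 and 38 genes was chosen in both mice and read in both, so choice and reading shared libraries here. Cd34, the sialomucin that appears as LT-HSC mature, had log2 ratios of -0.28 in mouse 1 and -0.63 in mouse 2.

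**Figure D4:**
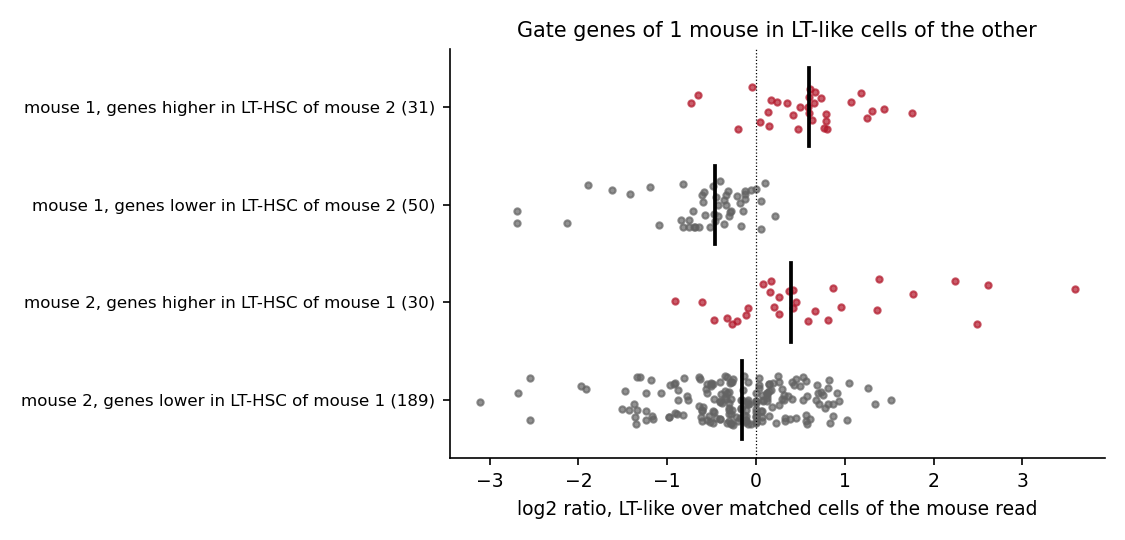
Log2 ratio of LT-like over matched cells (x axis) for genes that differed between the gates of the other mouse (rows, with the number of genes). Points are genes and bars are medians. In mouse 1 the genes higher in LT-HSC of mouse 2 center on 0.60 and the lower ones on -0.46, and in mouse 2 the medians are 0.39 and -0.16.

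The second comparison asked how far LT-like cells remained from cells of the LT-HSC gate. Without a block, edgeR called 7 of 5793 genes higher in LT-like cells (0.121%) and 3 lower (0.0518%), and 213 had an unadjusted p under 0.05. With the mouse as a block, 10 were higher (0.173%) and 4 lower (0.069%), and 8 of the 10 unblocked calls were among these 14. DESeq2 called 1 higher and 1 lower, Flt3 and Apoe. The LT-HSC gate of mouse 1 entered with 22 cells and 115305 UMIs, where 3 counts are 26.0 CPM. Without it 11 genes were higher and 13 lower, with 9 of the 10 among them, while without the LT-HSC gate of mouse 2, which leaves those 22 cells as the only LT-HSC gate sample, no gene passed in either direction. With all barcodes of the LT-HSC library of mouse 1 the counts were 27 and 22. Without the LT-like cells of mouse 1 Apoe alone passed, and without those of mouse 2 the counts were 7 and 8, with 7 of the 10 among them and Apoe, Bex4 and H2afy not.

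Progenitor genes made up most of what was higher in LT-like cells. Flt3, at chr5:147330741-147400489 on the minus strand, stood at 78.8 and 171 CPM in LT-like cells, against 8.68 and 14.6 CPM in LT-HSC gate cells (log2 fold change 2.91, SE 0.35, edgeR adjusted p = 7.27e-06). Wfdc17 had 40.2 and 176 CPM in LT-like cells and 8.68 and 7.32 CPM in LT-HSC gate cells (log2 fold change 3.52, SE 0.52, edgeR adjusted p = 2.17e-04). Cd52 had 69.2 and 96.8 CPM in LT-like cells and 8.68 and 17.5 CPM in LT-HSC gate cells (log2 fold change 2.17, SE 0.35, edgeR adjusted p = 8.36e-04). The value of 8.68 CPM is a single UMI in the 22 cells of mouse 1. Both LT-like values of each gene lay above both LT-HSC gate values.

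Plac8 had 325 and 216 CPM in LT-like cells and 69.4 and 103 CPM in LT-HSC gate cells (log2 fold change 1.51, SE 0.26, edgeR adjusted p = 0.00154). Cd34 had 319 and 245 CPM in LT-like cells and 95.4 and 121 CPM in LT-HSC gate cells (log2 fold change 1.30, SE 0.25, edgeR adjusted p = 0.00784). Serpinb1a, a protease inhibitor of leukocytes, had 166 and 137 CPM in LT-like cells and 8.68 and 61.6 CPM in LT-HSC gate cells (edgeR adjusted p = 0.0135). H2afy had 959 and 1053 CPM in LT-like cells and 442 and 542 CPM in LT-HSC gate cells (edgeR adjusted p = 0.0386), but lost its call when any 1 of the 4 sums was left out (edgeR adjusted p = 0.0929 to 0.809). Of 10 measurable MPP genes all 10 were positive (median 1.23) and 5 passed, while over all 5793 genes 2948 were positive. LT-like cells thus kept levels of progenitor genes above those of the LT-HSC gate while being below matched cells for several of them.

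Apoe was the only gene called lower in LT-like cells both without and with the mouse as a block. It had 251 and 142 CPM in LT-like cells and 486 and 643 CPM in LT-HSC gate cells (log2 fold change -1.50, SE 0.25, edgeR adjusted p = 0.00154), so that LT-like cells lay between matched cells and the gate. Bex4 had 30.6 and 11.4 CPM in LT-like cells and 52.1 and 82.3 CPM in LT-HSC gate cells (edgeR adjusted p = 0.0389, and 0.172 with the block). Gm10036 had 16.1 and 39.8 CPM in LT-like cells and 43.4 and 103 CPM in LT-HSC gate cells (edgeR adjusted p = 0.00518, and 0.345 with the block); it is annotated as a processed pseudogene, so its tags may belong to a near-identical gene. Mllt3 had 143 and 102 CPM in LT-like cells and 338 and 257 CPM in LT-HSC gate cells, and passed with the block only (log2 fold change -1.31, SE 0.27, edgeR adjusted p = 0.00535, against 0.0697 without). Meg3 had 64.3 and 34.2 CPM in LT-like cells and 121 and 138 CPM in LT-HSC gate cells and did not pass (edgeR adjusted p = 0.0697).

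Of 19 measurable stem cell genes 16 were negative against the LT-HSC gate (median -0.57) and 14 were lower in both mice, against 1214 of all 5793 genes. Mycn had 69.2 and 96.8 CPM in LT-like cells and 165 CPM in LT-HSC gate cells of both mice, and Esam, an adhesion molecule of stem cells, had 38.6 and 34.2 CPM in LT-like cells and 78.1 and 75.9 CPM in LT-HSC gate cells; neither passed. Grb10 had 32.2 and 22.8 CPM in LT-like cells and 130 and 49.3 CPM in LT-HSC gate cells and passed with the block only (edgeR adjusted p = 0.0447). Kit and Ly6a did not differ by more than their error, with log2 fold changes of 0.01 (SE 0.25) and 0.09 (SE 0.25). Pf4 had 158 and 199 CPM in LT-like cells against 139 and 92.4 CPM in LT-HSC gate cells, with no call.

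**Figure D5:**
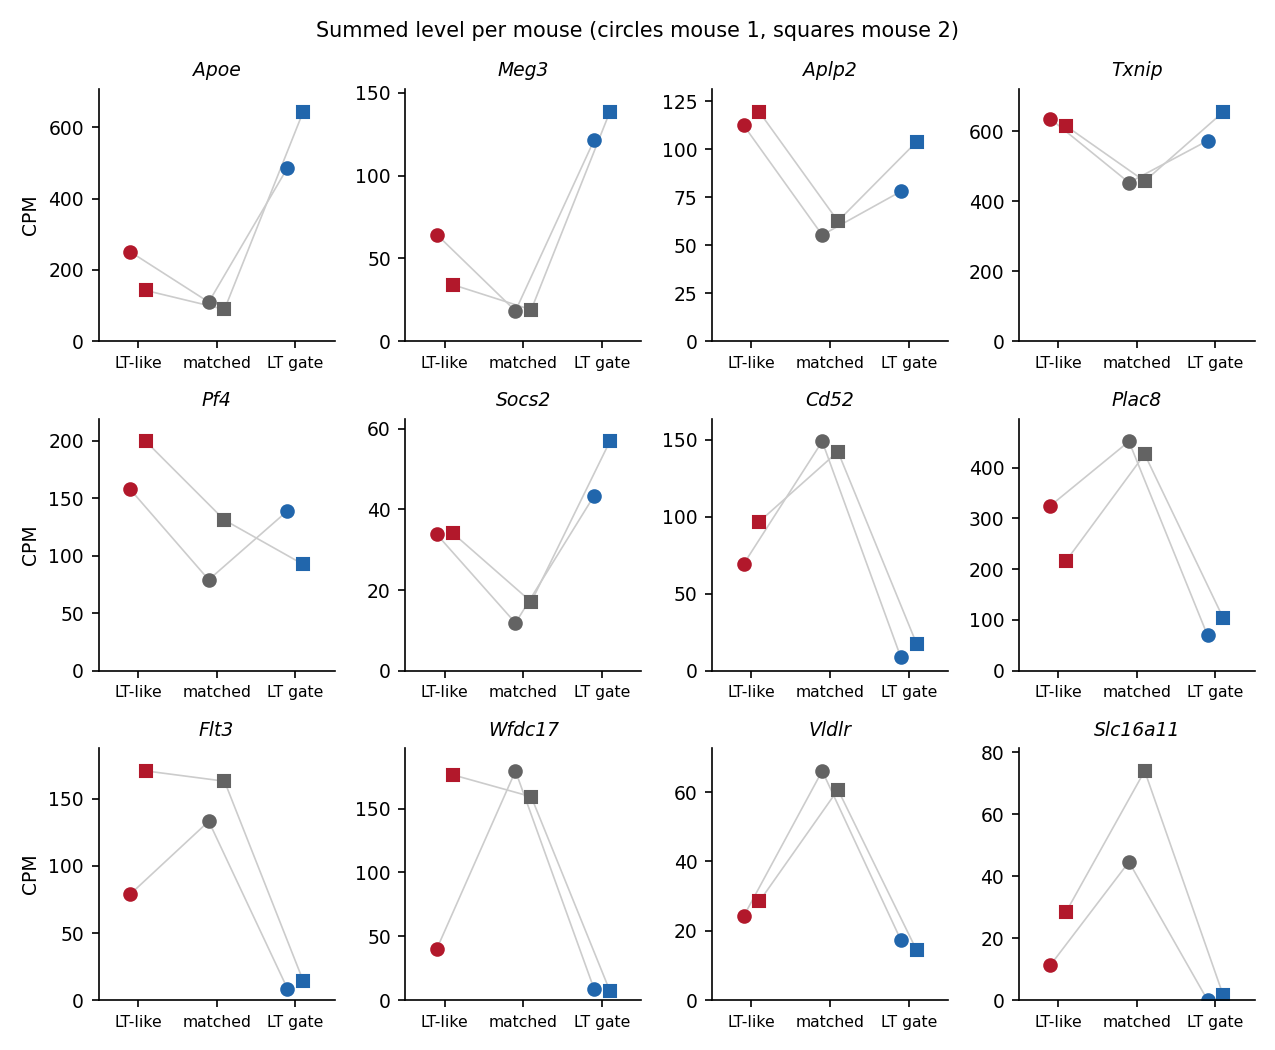
Level of 12 genes (y axis, CPM of the summed counts, each panel from 0) in LT-like cells, matched ST-HSC cells and LT-HSC gate cells (x axis), with circles for mouse 1 and squares for mouse 2 joined by lines. Apoe, Meg3 and Socs2 rank between matched cells and the LT-HSC gate in LT-like cells, and Flt3 and Plac8 in LT-like cells stay above the LT-HSC gate (Flt3 at 78.8 and 171 CPM, against 8.68 and 14.6 CPM).

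The label of these cells was not tested as such. With class as the only factor, edgeR called 0 of 7023 genes against matched cells. The gene lists were chosen with earlier results of these data known. Beyond the 7 genes, LT-like cells lay toward the LT-HSC gate in stem cell genes and several lower genes, while Flt3, Cd34, Cd52 and Plac8 stood above the gate by the test, and the share of cells that met the rule could not be set apart from the background of detection at this number of cells. The name LT-like therefore stands here for the rule, not for a cell type.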

How the data were processed

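Single bone marrow cells of 2 mice were profiled in 4 libraries with the 10x Chromium 3' v3 kit, per the labels' protocols. The deposited values are raw UMI counts of 31053 genes per barcode, made with Cell Ranger 3.1.0 on mm10 per the submitters' processing notes (3.0.2 per the file headers); strand use in counting and the choice of deposited barcodes are not given in the sources used here. Barcodes with at least 1000 genes, 2000 UMIs and at most 10% mitochondrial UMIs were kept; doublets were not removed. LT-like cells held a UMI of 2 or more of the 7 genes. Each was matched, deepest first and without replacement, to the 3 cells of its library with none of the genes that were nearest in total UMIs. The 7 genes were left out of totals and tests.

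Sums per mouse and class went into edgeR 4.0.16, run in R 4.3.3 with limma 3.58.1 (TMM scaling, default expression filter, quasi-likelihood test on class, Benjamini-Hochberg threshold 0.05); DESeq2 1.42.0 was an alternative. The mouse as a block was a second fit. Mouse numbers pair the sums because they come from the same animal, and deviations of same-numbered sums correlated at 0.23 in the comparison with matched cells and 0.02 in that with the LT-HSC gate. SE is the size of the log2 fold change over the square root of F. Intervals are exact Clopper-Pearson (scipy 1.17.1, Python 3.11.15). List sums are CPM of all UMIs. In the readings across mice, gate genes had a log2 ratio of at least 1 in size with a pseudocount of 1 CPM and at least 20 CPM in the higher gate.

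Named genes were Cd48, Kit, Ly6a and Flt3, the 12 largest per direction with at least 20 CPM in the higher class and the same direction in both mice (filled up by smallest p), and up to 4 per list by smallest p with a mean of at least 5 CPM. Genes named because they passed with the block, which are outside that rule (such as H2afy, Tmsb10, Malat1, Ifitm1, Pclaf, Stmn1, Nop10, Neat1, Pdzk1ip1 and Gm42418), and the genes read in both mice were chosen after their values were seen. The members, the 7 genes and the 29 gene lists were chosen with earlier results of these data known. Scripts were tested on simulated data. Alternatives were other scalings, filters, matching, membership rules and cell sets, and leaving out each sum.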

Additional observations from a re-analysis of the deposited data

How the results depend on the processing

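Counts of calls depended on the setting, and the cause was not tested. Against matched cells, where no gene was called, the numbers higher and lower were 21 and 18 with the mouse as a block, 1 and 3 without the low-count filter, 0 and 3 against all other kept ST-HSC cells and 0 and 1 with a rule without Slamf1; 1:1 matching, unmatched cells, 3 or more of the 7 genes, DESeq2, its size factors and leaving out cells with markers of other types gave none. Leaving out 1 sum gave 1 to 2 higher and 0 to 9 lower. Against the LT-HSC gate, with 7 and 3, the numbers were 10 and 4 with the block, 1 and 1 with DESeq2, 17 and 11 without the filter, 1 and 0 for cells with 3 or more of the 7 genes, 14 and 12 against LT-HSC gate cells that met the rule, and 27 and 22 with every barcode of the LT-HSC library of mouse 1. Leaving out 1 sum gave 0 to 11 higher and 0 to 13 lower, and the lone sum of a class is then assumed to vary like the rest. The shares across mice ranged from 82.8% to 90.0% and 71.9% to 84.4% for genes higher in LT-HSC, read in mice 1 and 2, and from 8.0% to 13.0% and 36.8% to 47.6% for the lower ones, under 5 settings chosen after seeing the data.

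Some directions turned against matched cells (log2 fold changes). For cells with 3 or more of the 7 genes, Ly6a was at -1.02, Plac8 at 0.51 and Ifitm1 at -0.36. Ly6a was at -0.028 against all other kept cells and at -0.026 against unmatched cells, and Gm42418 at -0.21 with 1:1 matching. Leaving out 1 sum gave ranges of -2.24 to 0.86 for Cd48, -0.87 to 0.25 for Flt3, -2.07 to 0.059 for Wfdc17, -2.11 to 0.44 for Hbb-bt, -0.048 to 0.74 for Ifitm1, -0.61 to 0.024 for Stmn1, -0.77 to 0.65 for Gm42418 and -0.056 to 0.78 for H2-Ab1. Against the LT-HSC gate, Kit and Ly6a were at -0.031 and -1.34 for cells with 3 or more genes and ranged from -0.24 to 0.18 and from -0.23 to 0.27 when 1 sum was left out. Beyond the calls given with each gene, the block ended no other call. Sums over 22 LT-like cells in mouse 2 and 22 LT-HSC gate cells in mouse 1 limit what could be seen below about 20 CPM.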

Other observations

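Of the interferon, MHC class II, detoxification, oxidative phosphorylation, mitochondrial, immediate early, Hox and cell cycle arrest genes, none was called in LT-like cells against matched ST-HSC cells with or without the block. Over all genes tested, 3602 of 7023 were positive (median 0.01). Of 18 measurable interferon response genes 8 were positive and 10 negative (median -0.03). Ifi27 had 101 and 91.1 CPM in LT-like cells of mice 1 and 2 and 131 and 203 CPM in matched cells, and Isg15 had 40.2 and 22.8 CPM in LT-like cells and 46.7 and 55 CPM in matched cells. Of 8 MHC class II genes 7 were positive (median 0.18), such as H2-Ab1 with 138 and 91.1 CPM in LT-like cells and 110 and 72.1 CPM in matched cells. Of 8 detoxification genes, a group that includes efflux pumps and conjugating enzymes known from stem cells, 7 were positive (median 0.16). Higher in both mice were 6 of them, against 1661 of all 7023 genes. Gstm1, a glutathione transferase, had 138 and 205 CPM in LT-like cells and 104 and 152 CPM in matched cells. Nuclear genes of oxidative phosphorylation leaned slightly downward, with 49 of 73 negative (median -0.05), and mitochondrially encoded genes were split, with 9 of 13 positive (median 0.04).

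Immediate early genes, which respond to handling and to growth signals, were mixed. Of 12 measurable ones 7 were positive (median 0.12), and Dusp1 had 41.8 and 45.5 CPM in LT-like cells and 24.7 and 37.9 CPM in matched cells while Klf6 had 37.0 and 62.6 CPM in LT-like cells and 28.5 and 36.0 CPM in matched cells. Of 5 measurable Hox genes 4 were positive (median 0.07). Of 10 genes of cell cycle arrest 6 were positive (median 0.18), with Trp53inp1 at 38.6 and 22.8 CPM in LT-like cells and 16.1 and 20.9 CPM in matched cells. Mmrn1, which stem cells share with endothelium, had 59.5 and 62.6 CPM in LT-like cells and 42.4 and 34.1 CPM in matched cells, whereas endothelial-defining markers summed to 3.22 and 5.69 CPM in LT-like cells and 4.30 and 9.48 CPM in matched cells. Car2, a carbonic anhydrase of the erythroid list, had 933 and 859 CPM in LT-like cells and 788 and 726 CPM in matched cells, while erythroid-defining markers summed to 4.82 and 5.69 CPM in LT-like cells and 1.07 and 0 CPM in matched cells. Outside the cell filter, 0 of 160 barcodes of the ST-HSC library of mouse 1 and 1 of 77 of mouse 2 held 2 or more of the 7 genes.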
